A study of Mus musculus with 12 samples.

Results

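Metallothioneins are small cysteine-rich proteins that bind zinc, copper and cadmium, and in the liver they buffer free zinc. Zinc crosses membranes through 2 families of carriers. The SLC39 (ZIP) proteins bring it into the cytosol, and most SLC30 (ZnT) proteins take it out. *Mt1*, *Mt2* and *Slc39a14* are known targets of interleukin-6 in hepatocytes, and zinc itself induces *Mt1*, *Mt2* and *Slc30a1* through the metal-responsive factor MTF1. The 7 genes described here are the metallothioneins *Mt1* and *Mt2*, the importers *Slc39a4*, *Slc39a10* and *Slc39a14*, the zinc exporter *Slc30a1*, and *Slc30a10*, a manganese exporter of the same family. They were taken by name from the 23391 genes listed in either of 2 count tables, and all 7 were listed in both. The members were selected on measured values, the chow levels of *Mt2* in livers of the 2 genotypes, where it was among the genes with the largest rise, and on the gene families, so the chow comparison of genotypes is given as a description with no test.

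Bulk RNA-seq counts came from 12 livers of male C57BL/6N mice that carry floxed *Elavl1*, the gene of the RNA-binding protein HuR, 3 livers in each of 4 groups. By the labels the mice were 4 to 6 months old, the HuRHep-/- mice received AAV8-Tbg-Cre, a virus whose thyroxine-binding globulin promoter drives Cre in hepatocytes, and the WT mice received AAV8-Tbg-null. One pair of groups was fed chow. The other was fed HFCF, a diet with 40 kcal% fat, 2% cholesterol and 20 kcal% fructose, for 16 weeks. The study's own methods describe another cross, with Cre driven by the albumin promoter, and which was used was not decided here. Total counts ran from 30071731 to 35949203 per liver. The *Elavl1* counts went against the labels: they were 938, 876 and 948 in chow livers labelled WT against 1475, 1265 and 1261 in those labelled HuRHep-/-, and 904, 791 and 849 against 1299, 1242 and 1271 on HFCF. A count over the whole gene does not measure the deleted part alone. Each direction below is one between livers as labelled. Hepatocyte markers were abundant in every group, and their summed level (in CPM, counts scaled by TMM factors and to a common library size) stepped down without overlap from 84580 to 105100 in chow WT livers through 68580 to 75280 in chow livers labelled HuRHep-/- and 60480 to 65500 in HFCF WT livers to 55680 to 59770 in HFCF livers labelled HuRHep-/-. All 6 markers had a value below 0 in each of the 4 comparisons, with 0 of 6 called by limma between the labels (0 at an unadjusted p under 0.05 on chow and 1 on HFCF) and 1 of 6 called lower in each comparison of diets (5 at an unadjusted p under 0.05 in WT livers and 4 in livers labelled HuRHep-/-, with median log2 values of -0.52 and -0.45). Of all genes, 2.29% were called between the labels on chow and 3.75% on HFCF. Between the diets 9.96% were called in WT livers and 19.6% in livers labelled HuRHep-/-. The part of the step in hepatocyte markers in the results below was not tested. In whole liver, fewer cells of a type and less RNA per cell cannot be told apart.

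*Mt2* and *Mt1* are neighbours on chromosome 8 of GRCm38, read from the same strand. *Mt2* (ENSMUSG00000031762) lies at 94172664 to 94173568 and *Mt1* (ENSMUSG00000031765) at 94179082 to 94180327, with 5513 bases between them. The 250 bases before the annotated start of both genes, and of the exporters *Slc30a1* and *Slc30a10* on chromosome 1, are shown because MTF1 acts through short metal response elements in such windows. Capitals mark the core TGCACNC or TGCGCNC on either strand. The sequences are from RefSeq (GRCm38.p6), 5′ to 3′ on the gene's own strand, which is the plus strand for all 4, at chr8:94178839-94179088 for *Mt1*, chr8:94172368-94172617 for *Mt2*, chr1:191906531-191906780 for *Slc30a1* and chr1:185454598-185454847 for *Slc30a10*.
Mt1: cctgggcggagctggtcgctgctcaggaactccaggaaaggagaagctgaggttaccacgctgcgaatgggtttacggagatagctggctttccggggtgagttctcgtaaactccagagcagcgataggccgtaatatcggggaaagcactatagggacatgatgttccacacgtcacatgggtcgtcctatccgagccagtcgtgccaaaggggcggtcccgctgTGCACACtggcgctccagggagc
Mt2: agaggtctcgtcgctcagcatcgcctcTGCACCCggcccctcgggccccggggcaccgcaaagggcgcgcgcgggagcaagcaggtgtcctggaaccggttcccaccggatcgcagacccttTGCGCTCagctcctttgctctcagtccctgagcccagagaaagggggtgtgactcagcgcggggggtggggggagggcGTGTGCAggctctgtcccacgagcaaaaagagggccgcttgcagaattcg
Slc30a1: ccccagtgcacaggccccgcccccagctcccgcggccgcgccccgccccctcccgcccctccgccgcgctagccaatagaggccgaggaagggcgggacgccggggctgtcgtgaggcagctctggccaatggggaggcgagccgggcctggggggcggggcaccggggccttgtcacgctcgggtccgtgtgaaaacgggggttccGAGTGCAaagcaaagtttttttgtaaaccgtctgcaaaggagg
Slc30a10: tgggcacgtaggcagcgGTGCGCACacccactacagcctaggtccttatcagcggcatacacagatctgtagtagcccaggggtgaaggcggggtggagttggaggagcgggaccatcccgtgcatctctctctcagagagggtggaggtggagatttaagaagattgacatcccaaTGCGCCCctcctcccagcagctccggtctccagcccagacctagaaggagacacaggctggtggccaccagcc

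Counted over 300 bases, from 250 before to 50 after the start, *Mt2* held 4 cores, *Mt1* and *Slc30a10* 3 each and *Slc30a1* 2. At least 1 core was present in 25.7% of the 32851 windows of the same length in the table, at least 2 in 7.11%, at least 3 in 1.97% and at least 4 in 0.517%. Of the 3 cores of *Mt1*, 1 lies in the printed bases and the others begin at 3 and 21 bases after the start. The first 2 cores of *Slc30a10* overlap each other on opposite strands. Both entries of *Slc39a10* held 0 cores. The antioxidant response element core TGACNNNGC was found once in *Mt2* and once in *Slc30a1* (12.4% of all windows), and the STAT palindrome TTCNNNGAA once in *Slc39a10* (8.3% of all windows). *Mt1* has further annotated starts downstream of its window, so bases just before those starts were not searched. A match to these letters is a description and not a binding site.

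**Figure D1:**
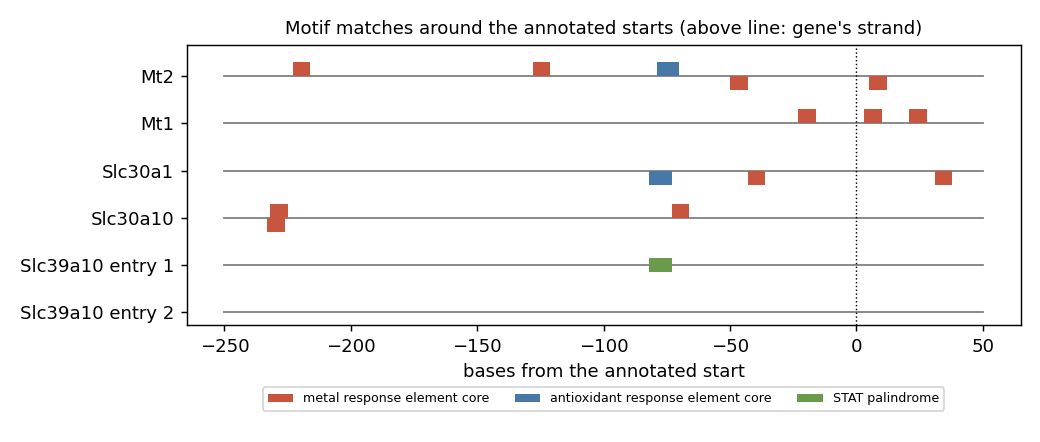
Position of motif matches in bases from the annotated start for the 5 members with a RefSeq promoter entry, with 1 line per entry and boxes above the line for the gene's strand, below it for the opposite strand and on it for both. *Mt2* holds 4 metal response element cores (red), *Mt1* and *Slc30a10* hold 3, *Slc30a1* holds 2 and *Slc39a10* holds 0.

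Per length of exon, the metallothioneins were the most abundant members in chow livers labelled WT. Mean levels were 68.6 ± 29.8 RPKM (reads per kilobase of exon, scaled to library size; SD, n = 3) for *Mt1* and 57.6 ± 29.3 for *Mt2*, and the livers of both genes overlapped. *Slc39a4* followed with 20.8 ± 1.55, *Slc39a14* with 14.0 ± 1.99, *Slc30a1* with 6.96 ± 0.413, *Slc30a10* with 3.38 ± 0.640 and *Slc39a10* with 0.279 ± 0.0484 RPKM. From *Slc39a4* down, no liver of one gene overlapped the next at the exon lengths used. The exon length used for *Mt1* includes a retained intron, so its RPKM is a low estimate. For *Slc39a14* the exons of all transcripts together, the length used, were 10550 bases, against 5117 in its longest transcript. For *Slc39a4* they were 3106 against 2750, and the order of these 2 genes depends on the length used. *Slc39a10* rested on 28 to 114 reads per liver, and its values carry the largest counting error among the members.

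In chow livers, the metallothioneins differed most between the labels. *Mt1* stood at 128, 67.0 and 61.3 CPM in livers labelled WT and at 494, 594 and 284 CPM in livers labelled HuRHep-/-. Its log2 fold change was 2.44 (95% interval 1.67 to 3.22), 5.44-fold. *Mt2* stood at 53.3, 28.1 and 20.3 CPM against 322, 366 and 144 CPM, a log2 fold change of 3.05 (2.07 to 4.03) or 8.27-fold. Every liver labelled HuRHep-/- was above every WT liver for both genes, with replicate 3 the lowest of its group. By size of rise *Mt2* was at rank 17 and *Mt1* at rank 29 of 13526 genes. These are the values for which the genes were chosen.

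**Figure D2:**
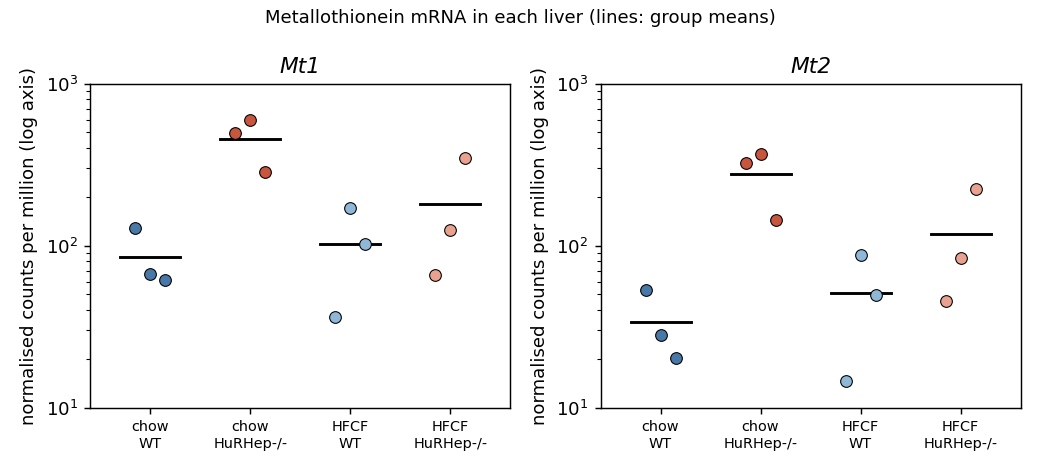
*Mt1* and *Mt2* in CPM on a log axis, 1 point per liver and a line at each group's mean. The chow livers labelled HuRHep-/- (284 to 594 CPM for *Mt1*) lie above the chow WT livers (61.3 to 128 CPM), and the HFCF groups overlap.

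The importers and exporters were close between the labels on chow, apart from *Slc39a10*, a plasma membrane zinc importer. It stood at 1.71, 1.40 and 1.99 CPM in livers labelled WT and at 1.13, 0.960 and 0.862 CPM in livers labelled HuRHep-/-, without overlap (log2 fold change -0.77, interval -1.28 to -0.26). The log2 fold changes of *Slc39a4*, *Slc39a14*, *Slc30a1* and *Slc30a10* were 0.09, 0.12, 0.10 and 0.10, and their groups overlapped. So 3 of 7 members did not overlap between the labels, where 29.5% of all 13526 genes did not, and 2.29% of all genes passed an adjusted p of 0.05 and a fold of 1.5. The rule used this contrast, and nothing is read from these counts.

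On HFCF, the metallothioneins varied among the livers of a group more than between the labels. *Mt1* was 36.2, 170 and 103 CPM in livers labelled WT and 66.1, 126 and 347 CPM in livers labelled HuRHep-/-. *Mt2* was 14.6, 88.2 and 49.7 CPM against 45.8, 83.7 and 223 CPM. The groups overlapped for both genes. The log2 fold changes were 0.71 (interval -0.96 to 2.38, adjusted p = 0.537 by limma, Benjamini-Hochberg over 14295 genes) for *Mt1* and 1.23 (-0.54 to 3.00, adjusted p = 0.312 by the same test) for *Mt2*. Both intervals hold 0. Without HFCF HuRHep-/- replicate 3, the highest liver, the *Mt1* value fell to 0.07 and the *Mt2* value to 0.52.

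The ratio of the 2 metallothioneins varied less over the livers than their levels, and within a diet it did not overlap between the labels. The counts of *Mt2* per count of *Mt1* were 0.415, 0.419 and 0.331 in chow WT livers and 0.652, 0.616 and 0.506 in chow livers labelled HuRHep-/-. On HFCF they were 0.404, 0.518 and 0.483 against 0.694, 0.666 and 0.642. In each diet every liver labelled HuRHep-/- had the higher ratio. On chow this follows from the values used in the selection, where *Mt2* had the larger rise, and nothing is read from it. On HFCF, whose livers the selection did not use, the ratios were apart although the levels overlapped: the HFCF liver with the summed level 112 CPM had 0.694, above the WT liver with 259 CPM and 0.518. With 3 against 3 livers an exact permutation test cannot go below p = 0.1 in both directions, so the HFCF ratios are given as a description. Across the 12 livers the log2 levels of *Mt1* and *Mt2* had Pearson's r = 0.982, a description over livers that share groups. A GENCODE antisense transcript, *Gm45774*, covers 73.5% of the *Mt2* exon bases on the opposite strand. The reads were mapped in reverse strand mode, and the part of antisense reads in the ratio was not tested.

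**Figure D3:**
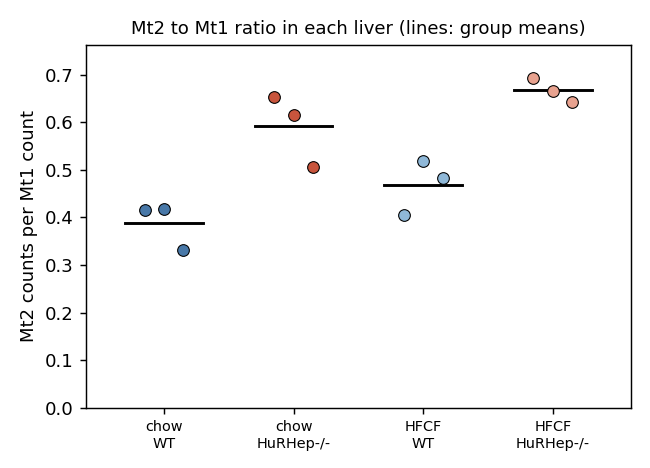
Counts of *Mt2* per count of *Mt1* in each liver, with a line at each group's mean. In both diets the 3 livers labelled HuRHep-/- lie above the 3 WT livers (0.642 to 0.694 against 0.404 to 0.518 on HFCF).

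Of the transporters on HFCF, *Slc39a4* rose with the label. *Slc39a4* (chromosome 15, 76612383 to 76617384, minus strand) encodes ZIP4, the importer for dietary zinc in the gut, whose loss gives acrodermatitis enteropathica in people. It stood at 39.6, 46.7 and 50.8 CPM in livers labelled WT and at 88.3, 90.1 and 92.4 CPM in livers labelled HuRHep-/-. The WT livers were all lower, and the HuRHep-/- group had a coefficient of variation of 2.31%. The log2 fold change was 0.97 (standard error 0.092, interval 0.76 to 1.19, adjusted p = 0.0075 by limma), 1.96-fold. It was the only member called of 7, where 3.75% of all 14295 genes were called, and it was rank 23 of them by p. Leaving out HFCF HuRHep-/- replicate 2 raised its adjusted p to 0.0519, at a log2 fold change of 0.97. Tested against a fold of 1.5 by limma, *Slc39a4* had an adjusted p of 0.304 and was not called.

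The remaining importers and exporters were not called on HFCF. *Slc30a1*, the plasma membrane zinc exporter, was 28.1, 30.0 and 26.5 CPM in livers labelled WT and 24.7, 24.4 and 24.5 CPM in livers labelled HuRHep-/-, without overlap, and its log2 fold change of -0.21 (interval -0.38 to -0.05) had an adjusted p of 0.102 by limma. *Slc39a14*, which encodes ZIP14, an importer of zinc, iron and manganese, had 0.19 (-0.06 to 0.45), *Slc39a10* -0.24 (-0.95 to 0.46) and *Slc30a10* -0.05 (-0.53 to 0.42), all 3 with overlapping livers. In all, 2 of 7 members did not overlap, where 36.8% of all genes did not.

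**Figure D4:**
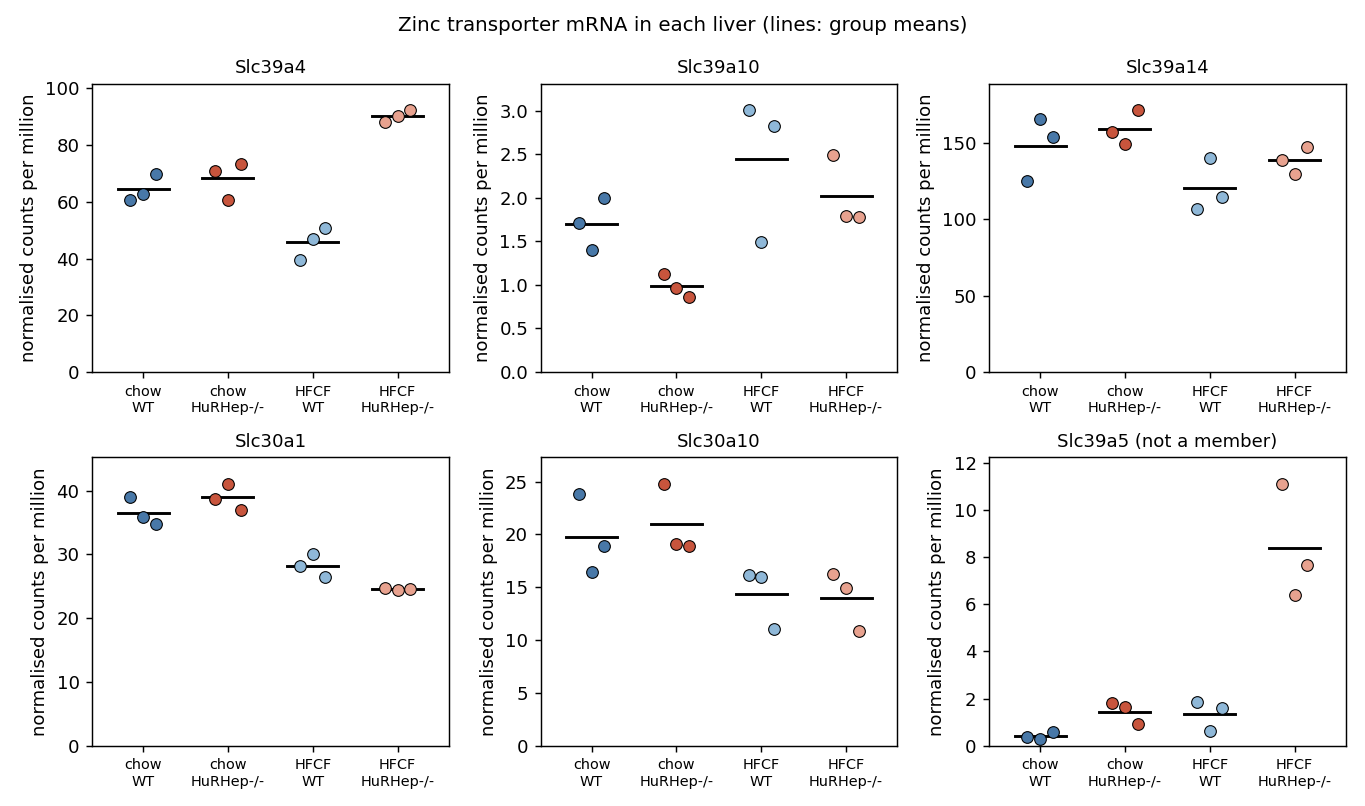
Levels in CPM of the 5 member transporters and of *Slc39a5*, which is not a member, with 1 point per liver and a line at each group's mean. *Slc39a4* in the HFCF livers labelled HuRHep-/- (88.3 to 92.4 CPM) lies above every other group, and *Slc39a5* does as well (6.40 to 11.1 CPM).

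Between the diets, *Slc39a4* moved in opposite directions under the 2 labels. In WT livers HFCF stood below chow (60.7, 62.8 and 69.9 CPM on chow), a log2 fold change of -0.50 (interval -0.71 to -0.29, adjusted p = 0.0047 by limma over 14535 genes) that is 1.41-fold and so under the fold limit of 1.5. In livers labelled HuRHep-/- HFCF stood above chow (71.0, 60.7 and 73.4 CPM on chow), at 0.41 (0.19 to 0.62, adjusted p = 0.0078 by limma), 1.32-fold. Neither diet pair overlapped. The test of the difference itself gave 0.91 (0.60 to 1.21) with an adjusted p of 0.0616, and 0 of 14535 genes (0%) passed it by limma, with 2084 at an unadjusted p under 0.05. *Slc39a4* was rank 6 of these genes by p. It passed without HFCF WT replicate 3, with an adjusted p of 0.0213. Each diet comes from its own table and its own time on diet, so diet and table cannot be told apart.

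Both exporters were called between the diets in livers labelled HuRHep-/-, and neither was called in WT livers, where *Slc30a1* missed only the fold limit. *Slc30a1* was 38.9, 35.9 and 34.7 CPM in chow WT livers and 38.7, 41.1 and 37.0 CPM in chow livers labelled HuRHep-/-, above every HFCF liver of the same label. In livers labelled HuRHep-/- it fell by 0.67 on the log2 scale (interval -0.81 to -0.52, adjusted p = 0.000117 by limma), 1.59-fold. In WT livers its log2 value was -0.37 (-0.52 to -0.22, adjusted p = 0.0035 by limma), 1.29-fold and so under the fold limit of 1.5. *Slc30a10*, the manganese exporter of hepatocytes and of the biliary surface, was 24.8, 19.1 and 19.0 CPM in chow livers labelled HuRHep-/- and 16.3, 14.9 and 10.9 CPM on HFCF. It fell by 0.59 (-1.01 to -0.16, adjusted p = 0.0333 by limma), just at the fold limit (1.502-fold). Its call was lost without chow HuRHep-/- replicate 1 (adjusted p = 0.113), HFCF HuRHep-/- replicate 2 (0.0534) or HFCF HuRHep-/- replicate 3 (0.131). In WT livers *Slc30a10* was 23.8, 16.5 and 18.9 CPM on chow and 16.2, 16.0 and 11.1 CPM on HFCF, with a log2 value of -0.46 (-0.88 to -0.03) and an adjusted p of 0.109. The diet changes under the 2 labels did not differ past the test for either exporter. The difference was -0.29 (adjusted p = 0.230 by limma) for *Slc30a1* and -0.13 (0.872) for *Slc30a10*.

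*Slc39a10* was higher on HFCF in livers labelled HuRHep-/-. It was 2.49, 1.79 and 1.78 CPM there, above every chow liver of that label, and rose 2.02-fold (log2 fold change 1.02, interval 0.43 to 1.61, adjusted p = 0.0121 by limma). Without HFCF HuRHep-/- replicate 1 its adjusted p was 0.0518. In WT livers its HFCF values were 3.01, 1.496 and 2.83 CPM and overlapped those of chow (log2 value 0.47, interval -0.12 to 1.05). Without HFCF WT replicate 2, *Slc39a10* was called in WT livers as well, at 0.79 (adjusted p = 0.0247 by limma). The difference of its diet change between the labels was 0.55 (interval -0.28 to 1.38, adjusted p = 0.53), not called. *Slc39a14* was 125, 166 and 154 CPM in chow WT livers, and its log2 diet values were -0.30 and -0.20 under the 2 labels, neither called, with the livers apart only under the HuRHep-/- label. The metallothioneins had log2 diet values of 0.09 (*Mt1*) and 0.36 (*Mt2*) in WT livers and -1.62 and -1.44 in livers labelled HuRHep-/-, where the livers overlapped. The genes were chosen for high values in the chow livers of that label, so a lower value on HFCF is in part built in, and these are given with no test. Without HFCF HuRHep-/- replicate 3, the values were -2.26 for *Mt1* and -2.05 for *Mt2*. In all, 0 of 7 members were called by limma between diets in WT livers (4 at an unadjusted p under 0.05), where 9.96% of all genes were, and 3 of 7 in livers labelled HuRHep-/-, where 19.6% were. Members without overlap were 3 of 7 in WT livers (37.6% of all genes) and 5 of 7 in livers labelled HuRHep-/- (54.6%).

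**Figure D5:**
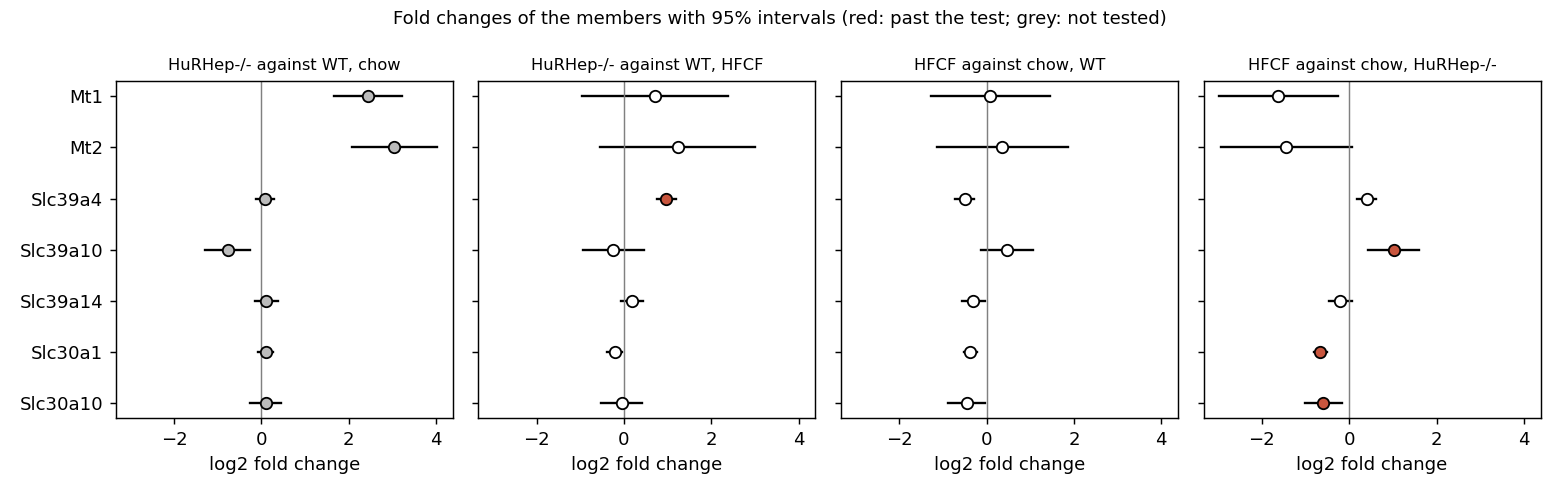
Log2 fold changes of the 7 members with 95% intervals in 4 comparisons, with red points for members called (adjusted p and fold limit) and grey ones for the chow contrast that chose them. *Slc39a4* is red on HFCF between labels (0.97), and *Slc39a10*, *Slc30a1* and *Slc30a10* are red between diets in livers labelled HuRHep-/-.

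Among the other genes of zinc handling, the importer *Slc39a5*, which encodes ZIP5, was called in all 4 comparisons. Of 10 other *Slc39* genes tested, 1 was called higher and 0 lower between the labels in each diet, and it was *Slc39a5* in both. Between the diets, 1 was called higher and 2 lower in WT livers (8 at an unadjusted p under 0.05), where 9.96% of all genes were called, and 1 higher and 0 lower in livers labelled HuRHep-/- (5 at an unadjusted p under 0.05), where 19.6% were. Between the labels the shares of all genes were 2.29% on chow and 3.75% on HFCF. Its counts were 11, 9 and 18 in chow WT livers and 62, 53 and 30 in chow livers labelled HuRHep-/-, and on HFCF 70, 21 and 50 against 446, 247 and 284. Log2 fold changes were 1.77 (standard error 0.37, adjusted p = 0.0426 by limma) on chow and 2.69 (0.41, adjusted p = 0.0217) on HFCF. With 1 liver left out the chow call held in 1 of 6 fits and the HFCF call in 2 of 6, with log2 values from 1.57 to 2.06 and from 2.23 to 2.99. The chow call was also lost with no filter on low counts (adjusted p = 0.0547), with voom weights (0.0541) and with a replicate block (0.0813). Between the diets it rose under both labels, at 1.59 in WT livers (adjusted p = 0.0171) and 2.54 in livers labelled HuRHep-/- (0.000993). *Slc39a2* (-1.08, adjusted p = 0.0111) and *Slc39a6* (-0.63, 0.0183) fell with the diet in WT livers. Leaving out 1 liver at a time, *Slc39a2* stayed past the test in WT livers in 6 of 6 fits, *Slc39a6* in 4 of 6 and *Slc39a5* in 3 of 6, and with voom weights the adjusted p of *Slc39a5* there was 0.0982.

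Of 6 other *Slc30* genes tested, 0 were called in any comparison by limma, with at most 3 at an unadjusted p under 0.05. The lowest values between the labels were those of *Slc30a5*, a Golgi zinc transporter, at -0.25 (adjusted p = 0.0870) on chow and -0.39 (0.0479, under the fold limit) on HFCF, and the highest those of *Slc30a3*, a vesicular zinc transporter, at 0.27 and 0.33. Between the diets *Slc30a3* had the lowest values, -0.68 (adjusted p = 0.217) in WT livers and -0.60 (0.237) in livers labelled HuRHep-/-. *Mtf1*, the metal-responsive factor itself, had log2 values of 0.03 on chow (adjusted p = 0.847) and 0.11 on HFCF (0.526) between the labels, and -0.18 and -0.083 between the diets. *Mt3* and *Mt4*, the metallothioneins of brain and stratified epithelium, were each listed in only 1 of the tables and were under the count minimum. Of 12 copper genes, 1 was called across the label comparisons, *Sco2*, a mitochondrial copper chaperone, which fell by 0.63 on HFCF (adjusted p = 0.0235, past the test in 3 of 6 fits with 1 liver left out). The highest copper values were those of *Atp7a*, a copper-exporting ATPase, at 0.76 on chow between the labels (adjusted p = 0.231) and 0.80 between the diets in WT livers (0.061). Of 3 manganese genes 0 were called between the labels (1 at an unadjusted p under 0.05 in each diet). *Atp2c1*, a Golgi pump for calcium and manganese, had the lowest value, -0.33 on HFCF (adjusted p = 0.0359, under the fold limit), and *Slc11a2*, a divalent metal importer, the highest, 0.11 on chow (0.672).

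The metallothioneins are also known targets of inflammatory, glucocorticoid and oxidant signals. Of 24 acute phase and STAT3 genes, 6 were called higher and 1 lower between the labels on chow, where 2.29% of all genes were called, with a median log2 value of 0.39 against 0.01 over all genes. *Saa1*, a serum amyloid A gene whose close copy *Saa2* may share its reads, was 21.2, 55.4 and 22.2 CPM in chow WT livers and 501, 1161 and 184 CPM in chow livers labelled HuRHep-/- (log2 fold change 4.01, adjusted p = 0.0211 by limma, past the test in 2 of 6 fits with 1 liver left out). The order of livers by *Saa1* was that by both metallothioneins within each of the 2 groups labelled HuRHep-/-, and it differed in both WT groups. *Hp*, which encodes haptoglobin, rose by a log2 fold change of 0.88 (adjusted p = 0.0455, past the test in 1 of 6 such fits). On HFCF 1 acute phase gene was called higher, *Itih3* (0.85, adjusted p = 0.0247, past the test in 2 of 6 such fits), and 1 lower, *Hpx*, which encodes hemopexin (-1.61, 0.00226, in 6 of 6), where 3.75% of all genes were called, with a median of 0.31 against a median near 0 over all genes. Of 10 glucocorticoid genes 0 were called by limma between the labels in either diet (0 at an unadjusted p under 0.05 on chow and 2 on HFCF), and the medians were 0.05 on chow and -0.15 on HFCF. Of the oxidant genes 0 of 7 on chow and 0 of 8 on HFCF were called between the labels (2 at an unadjusted p under 0.05 in each diet), with medians of 0.06 and 0.10. Of 11 clock genes 0 were called on chow (1 at an unadjusted p under 0.05), and *Cry1* fell by 0.78 on HFCF (adjusted p = 0.0409). The part of these signals in the metallothionein levels was not tested.

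Over the 12 livers, the 5 genes whose log2 levels were most like the mean of *Mt1* and *Mt2*, among 9065 genes with a mean of at least 5 CPM, were *Col18a1* (Pearson's r = 0.911), *Mrfap1* (0.897), *Clu* (0.891), *Kalrn* (0.882) and *Ccdc51* (0.880). The livers share groups and scaling, and they include the chow livers whose *Mt2* levels were used in the selection. A gene higher in the chow livers labelled HuRHep-/- than in the others has a value above 0 in part by construction. These values and those below are a description, and nothing is read from them. Over the 24 acute phase genes the same measure ran from -0.478 (*Hpx*) to 0.821 (*Itih4*), with a median of 0.517 and 4 genes below 0. Over the 10 glucocorticoid genes it ran from -0.405 to 0.572, with a median of 0.357, and the median over the 9065 genes was 0.0279. *Slc39a10* ran the other way, at -0.766 with *Mt1*, and *Slc30a1* and *Slc30a10* had 0.794 with each other.

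Markers of other liver cells differed between the groups as well. Of all single genes, 3.75% were called between the labels on HFCF and 2.29% on chow, and 36.8% and 29.5% did not overlap. Summed cholangiocyte markers (6 genes, none at 0) were 13.5 to 19.4 CPM in HFCF WT livers and 30.6 to 47.1 CPM in HFCF livers labelled HuRHep-/-, and 2 of 5 tested were called higher. On chow they were 12.03 to 18.7 against 8.65 to 12.8 CPM, with 0 of 5 called (1 at an unadjusted p under 0.05). Recruited macrophage markers (6 genes) were 46.2 to 142 against 172 to 302 CPM on HFCF, without overlap, and 1 of 6 was called higher. Kupffer cell markers (6 genes) were 183 to 287 against 239 to 416 CPM on HFCF, with overlap, and 116 to 145 against 168 to 247 CPM on chow, without overlap. T and B cell markers (6 genes) were 2.29 to 4.06 against 5.08 to 6.79 CPM on HFCF and neutrophil markers (6 genes) 1.03 to 1.08 against 1.69 to 2.12 CPM, both without overlap. Of these, 0 of 6 and 0 of 2 tested were called by limma (4 and 1 at an unadjusted p under 0.05). By limma 0 of 6 Kupffer cell markers were called in either diet (2 at an unadjusted p under 0.05 on HFCF and 4 on chow). Between the diets in livers labelled HuRHep-/-, 6 of 6 recruited macrophage, 6 of 6 stellate cell and 5 of 5 tested cholangiocyte markers were called higher, where 19.6% of all genes were called in either direction. *Slc39a4*, *Slc39a5* and *Slc39a10* were also higher on HFCF in those livers, as were *Slc39a4* and *Slc39a5* between the labels on HFCF, and the part of other cell types in their values was not tested. Pancreatic acinar cell markers summed to at most 1.52 CPM, and of the 4 listed 1 or 2 were at 0 in a group. On chow they were 0.362 to 0.568 CPM in livers labelled WT and 0.738 to 1.52 CPM in livers labelled HuRHep-/-, without overlap, and *Slc39a5* stood at 0.301 to 1.80 CPM in the same livers. The 1 acinar marker tested, *Cela2a*, had a log2 value of 1.09 on chow (adjusted p = 0.139 by limma) and fell by 1.99 between the diets in livers labelled HuRHep-/- (0.015). This is 1 gene at a low level. The part of acinar cells in the values of *Slc39a5*, on chow or between the diets, was not tested.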

How the data were processed

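Reads were aligned by the authors to GRCm38.p6 with CLC Genomics Workbench (version not given in the sources used here), in reverse strand mode, and they deposited raw read counts per gene in 1 table for each diet. The larger values are text with a comma as digit separator. All values were whole numbers once the commas were read. A count test was not run, and limma 3.58.1 (R 4.3.3) with a variance trend was used on log2 CPM in its place. The log2 CPM values were computed here from the deposited counts with TMM factors and a pseudocount of 0.5. The filter kept genes at a level worth 10 counts in a median library in 3 or more livers, with 15 counts in total. The labels were compared within each diet (6 livers), and the diets and the difference of the label change over 12 livers with the genes in both tables. A call is an adjusted p of at most 0.05 (Benjamini-Hochberg over all genes tested) and a fold of at least 1.5. Intervals are 95% intervals of the fit. The fits were tested on simulated counts.

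The members and lists were chosen with earlier results of these data known. Named were all members, called genes and the largest value in each direction of the metal lists, up to 4 genes of each other list, and the 5 genes most like the metallothioneins. *Fga*, *Itih4*, *Lcn2*, *Orm3* and *Saa2* were named beyond that rule after their values were seen. Replicate numbers were not used to pair the livers. Correlations of same-numbered deviations over all genes ran from -0.136 to 0.19, and not every pair was above 0.1. They do not measure an effect of replicate number shared by a few genes. *Mt1* and *Mt2* were lowest in replicate 1 of both HFCF groups, and whether this reflects pairing was not tested. The labels give no batch and only number the replicates, so p-values measure the spread between these livers, which may in part be technical. Promoters were matched by symbol, 5 of 7 members having an entry.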

Additional observations from a re-analysis of the deposited data

Results flagged for a closer look

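*Slc39a4* was set aside for a closer look because its diet change went opposite ways under the 2 labels, with every HFCF liver below every chow liver among those labelled WT (39.6 to 50.8 against 60.7 to 69.9 CPM) and every HFCF liver above every chow liver among those labelled HuRHep-/- (88.3 to 92.4 against 60.7 to 73.4 CPM). The difference of the 2 log2 changes was 0.91 (interval 0.60 to 1.21), with an adjusted p of 0.0616 by limma over 14535 genes. With 1 liver left out it lay between 0.81 and 0.99. The adjusted p then ran from 0.0213 to 0.198 and passed in 1 of 12 fits.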

How the results depend on the processing

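With 10 other settings and each of 12 livers left out, 551 values of the members kept their direction and, where tested, their side of the test, 11 lost a call, 7 gained one and 12 changed sign. The values that changed sign belong to comparisons in which that member was not called or, for 3 of them, to the chow label comparison, which has no test. With 1 liver left out, the diet change of *Mt1* in WT livers ran from -0.40 to 0.71 and that of *Mt2* from -0.21 to 1.09, the HFCF label change of *Slc30a10* from -0.23 to 0.12 and its difference between diets from -0.31 to 0.039. The chow label values of *Slc30a10* ran from -0.034 to 0.24 and of *Slc39a14* from -0.0031 to 0.21. The diet changes of *Sco2* (-0.19 to 0.14) and *Hpx* (-0.082 to 0.026, and 0.029 with upper quartile scaling) in WT livers and the HFCF label change of *Slc39a2* (-0.28 to 0.13) did so as well. Without a fold limit, calls over all genes were 571 and 978 between the labels on chow and HFCF, and 3514 and 5650 between the diets in WT livers and livers labelled HuRHep-/-, with 2 members called by diet in WT livers (*Slc39a4* and *Slc30a1*). Tested against a fold of 1.5 they were 7, 13, 99 and 392, with 0 members called on HFCF or by diet under either label. With 1 liver left out, calls ran from 9 (without chow HuRHep-/- replicate 2) to 323 on chow, from 28 (without HFCF HuRHep-/- replicate 1) to 878 on HFCF, from 917 to 1880 by diet in WT livers and from 2235 to 2676 in livers labelled HuRHep-/-. Members called ran from 0 to 1 on HFCF and by diet in WT livers (*Slc39a10* without HFCF WT replicate 2), and from 2 to 4 by diet in livers labelled HuRHep-/- (4 without HFCF HuRHep-/- replicate 3, with *Mt1* and *Mt2*, whose chow values chose them, among the 4). The difference between the diets gave 1 gene with no filter on low counts, 1 with voom weights, and 0 to 39 with 1 liver left out, where members called ran from 0 to 1 (*Slc39a4*). The cause of these changes was not tested. The call of *Slc30a10* by diet was also lost with upper quartile scaling (adjusted p = 0.0603) and, by its fold, with at least 10 counts in every library. The chow call of *Hp* was lost with no filter on low counts (adjusted p = 0.052) and with a replicate block (0.0508), and those of *Sco2* on HFCF and of *Itih3* by diet in WT livers, by their fold, with upper quartile scaling. With at least 10 counts in every library *Slc39a5* was not tested on chow or by diet. The replicate block changed no member's call and gave 231 calls on chow and 779 on HFCF. At 28 to 114 reads per liver, *Slc39a10* is the member that depth limits most.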

Other observations

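Genes of 3 signals known to act on metallothionein genes were also compared between the diets, where 9.96% of all genes were called in WT livers and 19.6% in livers labelled HuRHep-/-. Of the 24 acute phase and STAT3 genes, 3 were called higher and 5 lower on HFCF in WT livers, and 2 higher and 11 lower in livers labelled HuRHep-/- (medians -0.11 and -0.48, against 0.01 and 0.00 over all genes). The largest change called in this list under each label was a rise, that of *Orm3*, an orosomucoid gene whose close copies may share its reads. It rose by a log2 fold change of 3.24 in WT livers (adjusted p = 0.000474 by limma) and 3.21 in livers labelled HuRHep-/- (0.000258), and *Lcn2*, which encodes lipocalin 2, and *Saa2* rose in WT livers by 2.86 (0.00614) and 2.59 (0.0287). The fibrinogen chain *Fga* fell under both labels, by 0.77 (adjusted p = 0.0112 by limma) and 0.93 (0.00262), and *Itih3*, an inter-alpha-trypsin inhibitor heavy chain, by 0.62 (0.0143, past the test in 3 of 6 fits with 1 liver left out) and 1.05 (0.000595, in 6 of 6). *Saa1* fell by 1.72 in livers labelled HuRHep-/- (adjusted p = 0.0347), where it had stood high on chow, with overlapping livers, and it passed in 2 of 6 fits with 1 liver left out. In WT livers its value was 1.59 (0.0669). Of 8 oxidant genes, 2 were called higher in WT livers, *Nqo1* (log2 fold change 0.68, adjusted p = 0.0435) and *Srxn1* (1.06, 0.00336), and 4 in livers labelled HuRHep-/-, among them the haem oxygenase *Hmox1* (0.78, 0.0113). Of 10 glucocorticoid genes 1 was called in each comparison, close to the share of all genes in WT livers and below it in livers labelled HuRHep-/-. It was *Klf9*, a glucocorticoid-responsive transcription factor, which fell by 0.76 and 0.75 under the 2 labels. The comparison of diets shares its livers with that of the labels, and diet and table cannot be told apart.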
